A study of Mus musculus with 12 samples.

Results

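Repair of platinum crosslinks by the Fanconi pathway and homologous recombination was followed through 42 listed genes, taken by their symbols, of which 40 were measured among the 17097 genes on the arrays. Xrcc2 and Rbbp8 were not analysed here. Each gene was represented by the probe set that carries its symbol alone and has the highest mean over the arrays. RNA came from CT26, a mouse colon carcinoma line, and was hybridized to 12 Affymetrix mouse arrays, 3 in each of 4 groups. Cells of the STS+OXP group were kept under short-term starvation (STS), in 0.5 g/L glucose and 1% serum for 48 hours, and were given oxaliplatin (OXP), while OXP cells received the drug in 1 g/L glucose and 10% serum. STS cells had the starvation medium alone, and control (CTR) cells had 1 g/L glucose and 10% serum without the drug. The labels give 10 µM OXP, added 24 hours after STS began, whereas the paper's own text and legends differ in concentration and timing. All groups are 1 cell line in culture, and whether replicate arrays stem from different cultures is not given in the sources used here, so that the p-values measure only the spread between arrays, which may be technical.

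Oxaliplatin leaves platinum bound to DNA, mostly between neighbouring bases of a strand and more rarely between both strands, where it blocks the replication fork. In the Fanconi pathway, FANCM and its partners bring a core ubiquitin ligase to such a fork, the ligase and UBE2T attach ubiquitin to FANCD2 and FANCI, and nucleases then unhook the crosslink. Translesion polymerases copy past the remnant, and the broken sister is rebuilt by homologous recombination, in which BRCA1, PALB2 and BRCA2 act on resected ends. The kinases ATR and ATM and their effectors CHK1 and CHK2 slow the cycle meanwhile. Many of these genes are transcribed mainly in S and G2 phase.

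All values are log2 signals after RMA, so that a difference of 1 is a doubling of signal, and calls rest on limma, with p-values adjusted over all genes by the Benjamini-Hochberg method and a threshold of 0.05. A group was counted as above background where its mean exceeded the highest of 22 nonspecific control probe sets on its arrays, which lay between 3.21 and 3.72. By this measure 35 of the 40 measured genes were above background in at least 1 group. The other 5 (Fance, Bard1, Brip1, Rad51b and Rad54l) were at background in all 4 groups. The median SD of a gene within a group was 0.111. OXP replicate 1 stood apart in RNA quality, with a 3′ minus 5′ difference of 3.85 for Gapdh, against -0.117 to 0.284 on the other 11 arrays. It had the highest signal of the 3 OXP arrays for 16 of the 24 repair genes that were lower in OXP than in CTR. Of 10 epithelial markers, Epcam, Krt8, Krt20 and Cdx2 were above background, whereas Cdh1, Krt18, Krt19, Vil1, Cldn3 and Cldn4 were not.

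In both groups that received OXP most of the repair genes were lower than in CTR. In STS+OXP against CTR, 24 of 40 genes were lower and 2 higher, where 14.2% of all genes were called lower and 16.4% higher. In OXP against CTR, 24 of 40 were lower and 2 higher, against 13.9% and 17.5% of all genes. The median log2 change of the 40 genes was -0.65 in STS+OXP and -0.59 in OXP, against 0.00 and -0.01 over all genes. Both comparisons share the CTR arrays. Among the 35 genes above background, 23 were lower in STS+OXP and 22 in OXP. Calls among all 10517 genes above background were not counted, so that these counts have no such share beside them. Exo1 and Rad54b, for example, passed this filter only through STS and CTR, where they were high. In STS against CTR, 5 of 40 were higher and 1 lower, with 9.75% of all genes called higher and 6.74% lower, and the median of the repair genes was 0.05. The heat map shows the fall gene by gene. The cause of the fall was not tested, and in RNA from whole cultures fewer cells in S and G2 phase cannot be told apart from less of these messages per cell. Replication and mitosis genes moved beside them, with 35 of 35 measured genes lower in STS+OXP (median -2.12) and 35 of 35 lower in OXP (median -1.96), and a mean signal over the list of 5.44 to 5.48 in STS+OXP, 5.51 to 5.73 in OXP, 7.56 to 7.65 in STS and 7.50 to 7.59 in CTR arrays. Of 26 measured p53 targets, 19 were higher and 1 lower in STS+OXP, as in OXP. Of 8 macrophage markers 1 was higher in STS+OXP and 2 in OXP against CTR, with Ptprc, Lyz2, Itgam and Aif1 at background, and the mean over the list was 3.52 to 3.53 in STS+OXP, 3.49 to 3.91 in OXP, 3.39 to 3.47 in STS and 3.37 to 3.52 in CTR arrays. Of 8 fibroblast markers 2 were higher in STS+OXP, 1 in OXP and 3 in STS, with list means of 4.36 to 4.42 in STS+OXP, 4.32 to 4.40 in OXP, 4.46 to 4.49 in STS and 4.09 to 4.23 in CTR arrays. The part of these lists in the result was not tested.

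**Figure D1:**
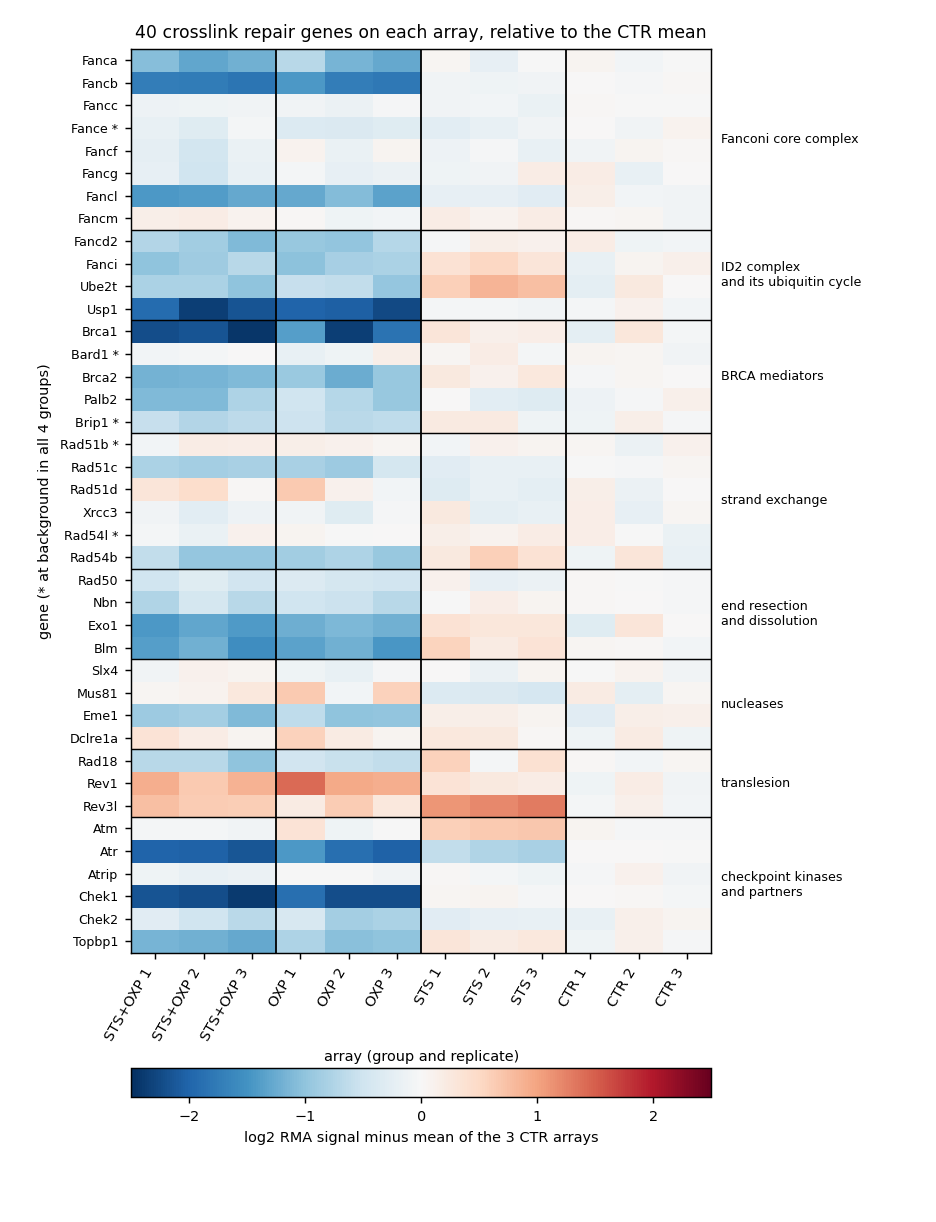
Heat map of the 40 measured repair genes (rows, grouped by role) on the 12 arrays (columns, group and replicate), coloured by log2 RMA signal minus the mean of the 3 CTR arrays. Rows such as Usp1, Brca1, Atr and Chek1 are dark blue on all 6 arrays with OXP, Rev1 and Rev3l are red there, and the 5 genes marked with an asterisk were at background in all 4 groups.

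Promoter windows are shown because 24 genes of the list were lower together, and E2F sites and the CHR element, with the CCAAT box, are known from promoters of cell cycle genes. RefSeq windows of 300 bases on GRCm38.p6, with 250 bases before and 50 after the annotated start, were found for 32 of the 40 genes. An E2F word (TTTGGCGC, TTTCCCGC, TTTCGCGC or TTTGCCGC, either strand) stood in 6 of 32 windows (18.8%), those of Bard1, Brca2, Chek2, Fancg, Rad51c and Topbp1, and in 2.6% of 27025 genes with a window. A CHR word (TTTGAA or TTCGAA) stood in 5 of 32 (15.6%) and in 21.7% of all, and CCAAT in 18 of 32 (56.2%) and in 41.1% of all, on either strand. Among genes lower in OXP an E2F word stood in 4 of 18 windows (22.2%), against 2 of 14 (14.3%) of the other repair genes. A CHR word stood in 2 of 18 (11.1%) against 3 of 14 (21.4%), and CCAAT in 9 of 18 (50%) against 9 of 14 (64.3%). These differences were not tested. No E2F word contains one of the other words. A match is a description of letters, and a window without one says only that these letters are not in it. Windows with an E2F word are printed for genes above background that were lower with OXP. The first are those of Brca2 (chr5:150522371-150522670, plus strand, first base of the word at -168 from the start) and Rad51c (chr11:87404457-87404756, minus strand, at 11). Rad51c has 2 starts, and its other window (chr11:87404905-87405204, minus strand) also holds an E2F word, at -5, but is not printed. Next are Topbp1 (chr9:103305077-103305376, plus strand, at -129) and Chek2 (chr5:110839733-110840032, plus strand, at -152). They are followed by Chek1 (chr9:36726609-36726908, minus strand), which fell with OXP, and Rev1 (chr1:38129617-38129916, minus strand), which rose, both without any of the words. Each is printed along the strand of its gene, with E2F words in capitals.
Brca2: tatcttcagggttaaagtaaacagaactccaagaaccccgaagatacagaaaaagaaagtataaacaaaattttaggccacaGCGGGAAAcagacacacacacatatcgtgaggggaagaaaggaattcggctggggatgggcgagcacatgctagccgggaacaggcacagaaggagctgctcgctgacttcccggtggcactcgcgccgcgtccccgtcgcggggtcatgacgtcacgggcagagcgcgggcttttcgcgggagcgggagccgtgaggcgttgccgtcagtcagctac
Rad51c: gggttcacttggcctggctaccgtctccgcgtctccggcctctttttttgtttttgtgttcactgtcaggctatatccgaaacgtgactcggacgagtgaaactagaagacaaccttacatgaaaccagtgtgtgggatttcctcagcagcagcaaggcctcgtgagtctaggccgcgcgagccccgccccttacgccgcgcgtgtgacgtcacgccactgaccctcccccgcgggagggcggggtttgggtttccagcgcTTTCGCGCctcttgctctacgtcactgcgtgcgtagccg
Topbp1: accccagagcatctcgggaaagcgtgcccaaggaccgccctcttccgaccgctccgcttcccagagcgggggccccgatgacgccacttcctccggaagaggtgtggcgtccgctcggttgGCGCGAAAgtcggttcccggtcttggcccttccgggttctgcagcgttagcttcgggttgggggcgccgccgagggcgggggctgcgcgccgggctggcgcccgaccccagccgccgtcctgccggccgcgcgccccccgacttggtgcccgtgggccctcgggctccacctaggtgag
Chek2: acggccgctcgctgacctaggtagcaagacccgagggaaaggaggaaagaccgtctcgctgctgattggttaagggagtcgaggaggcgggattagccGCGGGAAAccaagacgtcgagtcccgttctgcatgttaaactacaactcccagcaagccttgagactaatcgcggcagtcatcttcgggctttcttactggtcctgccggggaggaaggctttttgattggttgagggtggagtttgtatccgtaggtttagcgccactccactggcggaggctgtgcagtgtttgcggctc
Chek1: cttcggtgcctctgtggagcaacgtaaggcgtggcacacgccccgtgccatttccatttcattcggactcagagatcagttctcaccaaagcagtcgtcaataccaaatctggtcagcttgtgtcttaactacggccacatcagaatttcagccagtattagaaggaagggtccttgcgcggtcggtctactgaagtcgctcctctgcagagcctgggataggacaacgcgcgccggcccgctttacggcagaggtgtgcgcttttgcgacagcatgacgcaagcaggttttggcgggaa
Rev1: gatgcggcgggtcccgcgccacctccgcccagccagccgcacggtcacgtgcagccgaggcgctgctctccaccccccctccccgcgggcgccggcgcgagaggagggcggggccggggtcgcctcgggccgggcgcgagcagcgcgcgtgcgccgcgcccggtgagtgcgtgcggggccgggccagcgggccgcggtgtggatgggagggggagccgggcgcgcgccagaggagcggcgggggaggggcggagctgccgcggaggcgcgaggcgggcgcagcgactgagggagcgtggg

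In the Fanconi core complex, the ubiquitin ligase of the pathway, Fancb, Fancl and Fanca were lower with OXP and the other genes changed little or not at all. Fancb, a subunit that holds the catalytic module together, had 3.65, 3.63 and 3.54 in STS+OXP, 3.94, 3.64 and 3.59 in OXP, 5.29, 5.27 and 5.28 in STS and 5.37, 5.35 and 5.39 in CTR arrays. Arrays with and without OXP did not overlap, and the log2 change was -1.76 ± 0.0852 (SE) in STS+OXP and -1.65 ± 0.0852 in OXP against CTR (adjusted p = 3.39e-09 and 5.95e-09). The STS+OXP level lay next to the control floor of those arrays, which was 3.43, 3.62 and 3.72. A second Fancb probe set, above background in 2 groups, had a smaller difference of -0.50 in STS+OXP and -0.43 in OXP. Fancl, the ligase itself, had 4.95, 4.99 and 5.10 in STS+OXP, 5.10, 5.29 and 5.05 in OXP, 6.18, 6.18 and 6.10 in STS and 6.52, 6.32 and 6.30 in CTR arrays, again without overlap between arrays with and without the drug. Its change was -1.37 in STS+OXP and -1.24 in OXP (adjusted p = 3.56e-08 and 9.46e-08). Fanca, a scaffold subunit, had 4.65, 4.42 and 4.51 in STS+OXP, 5.02, 4.54 and 4.44 in OXP, 5.76, 5.50 and 5.70 in STS and 5.78, 5.64 and 5.70 in CTR arrays, with changes of -1.18 and -1.04 in STS+OXP and OXP (adjusted p = 7.84e-06 and 2.52e-05). OXP replicate 1 was the highest of the OXP arrays for Fancb and Fanca but remained below every array without OXP. Fancf, an adaptor subunit, was called lower in STS+OXP alone, by -0.28 (adjusted p = 0.0418), and this call was lost without CTR replicate 2 or 3, STS replicate 1 or 3 or STS+OXP replicate 1 or 2 (-0.30 to -0.19, adjusted p = 0.0513 to 0.186). Fancc, Fancg and Fancm, the helicase that recognises the fork, were not called, with changes of -0.29 to 0.14 in STS+OXP and -0.13 to -0.05 in OXP, except that Fancg was called lower in STS+OXP without CTR replicate 2 (-0.39, adjusted p = 0.0268). Fance was at background throughout, although its values of 3.00, 2.99 and 3.05 in OXP passed the test against 3.36, 3.26 and 3.43 in CTR (-0.34, adjusted p = 0.0057).

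All 4 genes of the step that marks and unmarks the FANCD2 and FANCI pair were lower with OXP. Usp1, the protease that removes the ubiquitin mark, had 7.13, 6.71 and 6.91 in STS+OXP, 7.05, 7.02 and 6.80 in OXP, 9.01, 9.02 and 8.97 in STS and 9.02, 9.17 and 9.00 in CTR arrays. The 6 arrays with OXP were all below the 6 without it, and the signal was 22.6% of the CTR level in STS+OXP and 23.2% in OXP, log2 changes of -2.15 ± 0.102 and -2.11 ± 0.102 (adjusted p = 3.01e-09 and 3.58e-09). Its other 2 probe sets were lower as well, by -1.97 and -2.47 in STS+OXP and by -2.34 and -2.28 in OXP. Fancd2, the protein whose ubiquitin mark recruits the nucleases, had 4.07, 3.95 and 3.71 in STS+OXP, 3.86, 3.83 and 4.09 in OXP, 4.78, 4.95 and 4.92 in STS and 4.99, 4.70 and 4.75 in CTR arrays. Its log2 change was -0.90 in STS+OXP and -0.88 in OXP (adjusted p = 1.9e-05 and 2.3e-05). Fanci, its partner, had 4.41, 4.53 and 4.72 in STS+OXP, 4.40, 4.59 and 4.63 in OXP, 5.78, 5.94 and 5.73 in STS and 5.23, 5.49 and 5.54 in CTR arrays. It fell by 0.87 and 0.88 on the log2 scale in STS+OXP and OXP, and the STS arrays lay above all others. Ube2t, the conjugating enzyme of the pathway, fell by 0.86 and 0.71 (adjusted p = 0.000164 and 0.000816), and its arrays are given with the starvation comparison.

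**Figure D2:**
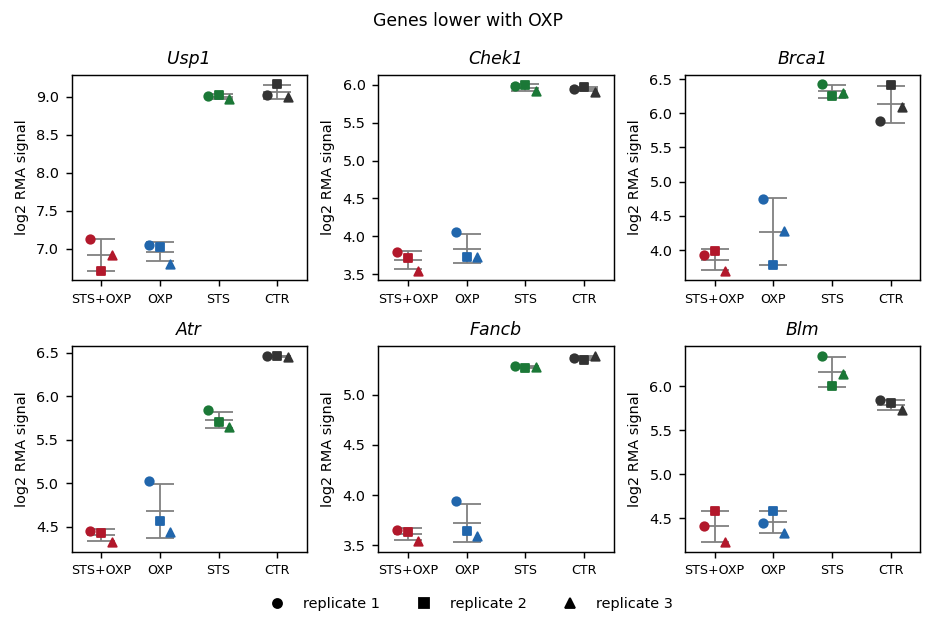
Log2 RMA signal of Usp1, Chek1, Brca1, Atr, Fancb and Blm on each array (symbols mark the replicate), with the mean and SD of 3 arrays per group in grey and an axis of its own for each gene. For all 6 genes the STS+OXP and OXP arrays lie below all STS and CTR arrays, and for Atr the STS arrays lie between.

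Among the BRCA mediators of recombination, Brca1 had the lowest signal relative to CTR on the probe sets used. Its other probe sets were at background in all groups, with changes of -0.51 to -0.07 in STS+OXP and -0.65 to -0.18 in OXP. Brca1, which acts in end resection and brings PALB2 to breaks, had 3.92, 3.98 and 3.70 in STS+OXP, 4.75, 3.78 and 4.28 in OXP, 6.43, 6.25 and 6.29 in STS and 5.89, 6.41 and 6.09 in CTR arrays. It was at 20.8% of CTR in STS+OXP and 27.6% in OXP, with log2 changes of -2.26 ± 0.195 and -1.86 ± 0.195 (adjusted p = 7.66e-07 and 4.9e-06), and the 3 OXP arrays were spread more widely than those of any other group. Brca2, a mediator that acts on single strands at breaks and stalled forks, had 5.18, 5.20 and 5.25 in STS+OXP, 5.44, 5.12 and 5.42 in OXP, 6.61, 6.46 and 6.63 in STS and 6.33, 6.40 and 6.36 in CTR arrays. Its change was -1.15 in STS+OXP and -1.04 in OXP (adjusted p = 2.78e-07 and 7.51e-07), and its promoter window holds an E2F word. Palb2, the bridge between BRCA1 and BRCA2, had 3.20, 3.20 and 3.52 in STS+OXP, 3.80, 3.59 and 3.35 in OXP, 4.31, 4.03 and 3.97 in STS and 4.18, 4.27 and 4.43 in CTR arrays. The STS+OXP mean of 3.31 was at background, so that Palb2 was at least 1.63-fold lower there than the CTR mean of 4.30 (adjusted p = 4.06e-05), and in OXP it was lower by -0.71 (adjusted p = 0.000674). Such bounds set the brighter group against the higher, on each array, of the dim probe set and the control floor. Bard1, the partner of BRCA1, was at background, as was Brip1, a helicase bound to BRCA1, whose values were 2.72, 2.56 and 2.65 in STS+OXP, 2.79, 2.62 and 2.67 in OXP, 3.53, 3.53 and 3.20 in STS and 3.19, 3.44 and 3.28 in CTR. Brip1 passed the test in both comparisons (adjusted p = 0.000144 in STS+OXP and 0.000295 in OXP), but no group of it was above background.

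Rad51b, Rad51c, Rad51d, Xrcc3, Rad54l and Rad54b, which act during strand exchange, moved unequally. Rad51c had 4.58, 4.54 and 4.56 in STS+OXP, 4.56, 4.47 and 4.95 in OXP, 5.09, 5.19 and 5.20 in STS and 5.37, 5.35 and 5.42 in CTR arrays, with changes of -0.82 in STS+OXP and -0.72 in OXP (adjusted p = 2.54e-05 and 8.31e-05). Rad54b, a DNA translocase related to RAD54, was at background in STS+OXP (3.07, 2.72 and 2.72) and OXP (2.82, 2.92 and 2.75), against 3.93, 4.29 and 4.05 in STS and 3.58, 3.99 and 3.50 in CTR. It was thus at least 1.07-fold lower in STS+OXP and at least 1.2-fold lower in OXP than in CTR, with means of 2.84 and 2.83 against 3.69 (adjusted p = 0.000226 and 0.000209). Rad51d had 5.18, 5.31 and 4.91 in STS+OXP, 5.53, 4.98 and 4.81 in OXP, 4.55, 4.70 and 4.63 in STS and 5.02, 4.73 and 4.89 in CTR arrays, and the groups with OXP overlapped CTR. Xrcc3 was not called in any comparison, with changes of -0.16 (95% interval -0.45 to 0.12) in STS+OXP and -0.14 (-0.43 to 0.14) in OXP. Rad51b and Rad54l, the strand exchange motor, were at background on the probe sets used.

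The 4 measured genes of end resection and of the unwinding of joint molecules were all lower with OXP, to unequal extents. Blm, a helicase that resolves joint molecules and helps resection, had 4.41, 4.58 and 4.23 in STS+OXP, 4.45, 4.59 and 4.33 in OXP, 6.35, 6.00 and 6.14 in STS and 5.84, 5.81 and 5.73 in CTR arrays. Its level was 38.2% of CTR in STS+OXP and 39.6% in OXP (log2 change -1.39 and -1.34, adjusted p = 2.82e-07 and 4.07e-07), and the arrays with and without OXP did not overlap. Exo1, the long-range resection nuclease, was at background in both OXP groups, with 3.14, 3.28 and 3.17 in STS+OXP and 3.36, 3.45 and 3.38 in OXP, against 4.94, 4.86 and 4.86 in STS and 4.28, 4.88 and 4.59 in CTR. It was at least 1.99-fold lower in STS+OXP and at least 2.11-fold lower in OXP than in CTR, with means of 3.19 and 3.39 against 4.58 (adjusted p = 5.28e-07 and 2.28e-06). Rad50 and Nbn, subunits of the complex that senses and trims broken ends, fell less. Nbn had 4.92, 5.23 and 4.97 in STS+OXP, 5.18, 5.13 and 4.97 in OXP, 5.66, 5.83 and 5.74 in STS and 5.69, 5.68 and 5.64 in CTR arrays, with changes of -0.63 and -0.58 in STS+OXP and OXP (adjusted p = 8.35e-05 and 0.000178). Rad50 was lower by -0.42 and -0.41 (adjusted p = 0.002 and 0.00247), at 74.5% and 75.1% of CTR.

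Of the nucleases, Eme1 was lower while Slx4, Mus81 and Dclre1a were not called with OXP against CTR. Eme1, the partner that MUS81 needs to cut, had 3.70, 3.77 and 3.51 in STS+OXP, 3.98, 3.60 and 3.63 in OXP, 4.75, 4.75 and 4.67 in STS and 4.33, 4.76 and 4.74 in CTR arrays. Its changes were -0.95 in STS+OXP and -0.87 in OXP (adjusted p = 4.53e-05 and 9.27e-05). Mus81 itself had 4.36, 4.40 and 4.57 in STS+OXP, 4.96, 4.24 and 4.88 in OXP, 3.97, 3.95 and 3.89 in STS and 4.51, 4.07 and 4.35 in CTR arrays, so that 1 OXP array was within the CTR range and 2 were above it. Without that array, OXP replicate 2, Mus81 was called higher in OXP than in CTR (0.61, adjusted p = 0.00087), against 0.38 with all arrays (adjusted p = 0.0922). Slx4, the scaffold on which these nucleases assemble, changed by 0.03 (95% interval -0.15 to 0.21) in STS+OXP and -0.11 (-0.29 to 0.07) in OXP. Dclre1a, a nuclease that digests past crosslinks, changed by 0.19 (-0.09 to 0.48) and 0.27 (-0.01 to 0.56), and it passed the test in OXP without OXP replicate 3 (0.38, adjusted p = 0.0497).

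The translesion group held both genes that were higher with OXP. Rev1, a deoxycytidyl transferase that also gathers the other translesion polymerases, had 6.34, 6.09 and 6.30 in STS+OXP, 6.85, 6.38 and 6.34 in OXP, 5.78, 5.67 and 5.62 in STS and 5.32, 5.62 and 5.35 in CTR arrays. Arrays with OXP lay above all arrays without it, at 176% of CTR in STS+OXP and 213% in OXP (log2 change 0.81 ± 0.129 and 1.09 ± 0.129, adjusted p = 0.000207 and 1.49e-05). Rev3l, the catalytic subunit of polymerase zeta, had 7.32, 7.21 and 7.18 in STS+OXP, 6.77, 7.21 and 6.83 in OXP, 7.67, 7.77 and 7.86 in STS and 6.52, 6.69 and 6.50 in CTR arrays. All 9 treated arrays were above CTR, and those of STS were the highest. The change was 0.67 in STS+OXP and 0.37 in OXP (adjusted p = 0.000246 and 0.0181), and the call in OXP was lost without CTR replicate 1 or 3 or OXP replicate 2 (0.34, 0.33 and 0.23, adjusted p = 0.062, 0.0707 and 0.0656). A further Rev3l probe set above background, with a CTR mean of 4.13, changed by -0.07 in STS+OXP and -0.14 in OXP, so that the probe sets disagreed. Rad18, the ligase that marks PCNA for polymerase exchange, had 5.06, 5.06 and 4.75 in STS+OXP, 5.29, 5.20 and 5.15 in OXP, 6.34, 5.71 and 6.15 in STS and 5.78, 5.70 and 5.81 in CTR arrays, and fell by 0.81 and 0.55 on the log2 scale in STS+OXP and OXP (adjusted p = 0.000324 and 0.0059).

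**Figure D3:**
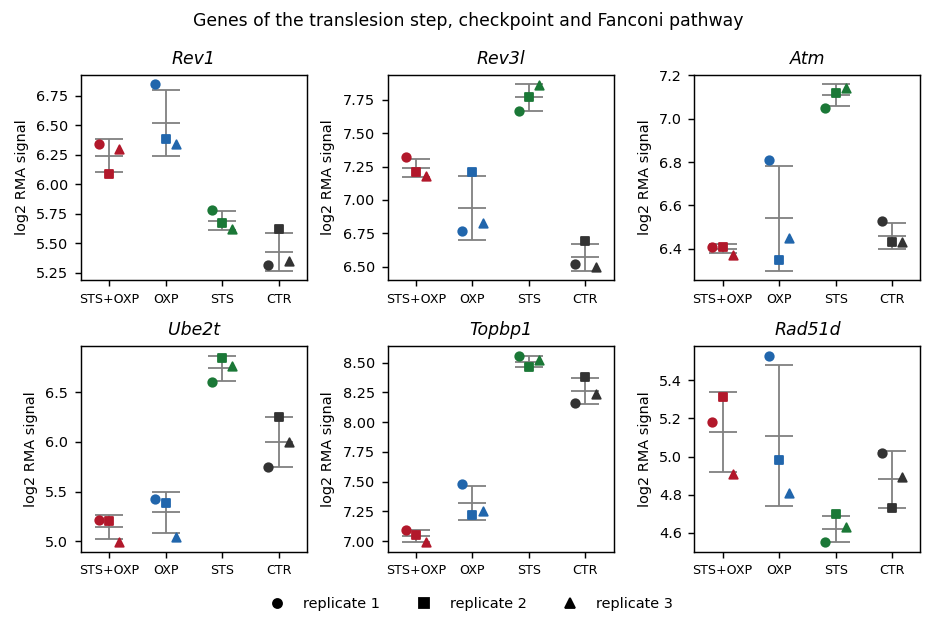
Log2 RMA signal of Rev1, Rev3l, Atm, Ube2t, Topbp1 and Rad51d on each array (symbols mark the replicate), with the mean and SD of 3 arrays per group in grey and an axis of its own for each gene. Rev1 is highest on the arrays with OXP, whereas Rev3l, Atm, Ube2t and Topbp1 are highest in STS and Rad51d is lowest there.

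In the checkpoint arm, Atr and Chek1 were both lower with OXP while Atm and Atrip were not called. Chek1, the kinase that ATR activates, had 3.79, 3.72 and 3.55 in STS+OXP, 4.06, 3.73 and 3.73 in OXP, 5.98, 6.00 and 5.91 in STS and 5.94, 5.97 and 5.90 in CTR arrays. Its level was 21% of CTR in STS+OXP and 23.3% in OXP (log2 change -2.25 ± 0.0947 and -2.10 ± 0.0947, adjusted p = 1.05e-09 and 1.86e-09), and a second probe set above background in 3 groups was lower by -1.78 and -1.45. Atr, the kinase that senses stalled forks, had 4.45, 4.43 and 4.32 in STS+OXP, 5.02, 4.57 and 4.44 in OXP, 5.84, 5.71 and 5.65 in STS and 6.47, 6.47 and 6.45 in CTR arrays, a ladder of groups without overlap except between both OXP groups. Its changes were -2.06 ± 0.119 in STS+OXP and -1.79 ± 0.119 in OXP (adjusted p = 1.71e-08 and 7.07e-08), with a smaller difference of -0.69 in STS+OXP and -0.74 in OXP on a second probe set that was above background in 3 groups. Its remaining probe set was at background in all 4 groups. Topbp1, which switches ATR on, had 7.09, 7.05 and 6.99 in STS+OXP, 7.48, 7.22 and 7.25 in OXP, 8.56, 8.46 and 8.52 in STS and 8.16, 8.38 and 8.24 in CTR arrays. Its change was -1.22 in STS+OXP and -0.95 in OXP (adjusted p = 9.08e-08 and 1.02e-06), and its window holds an E2F word. Chek2, the effector kinase of ATM, fell by 0.49 and 0.68 on the log2 scale (adjusted p = 0.00838 and 0.000755). Atm, the kinase that senses double-strand breaks, changed by -0.07 (95% interval -0.28 to 0.15) in STS+OXP and 0.07 (-0.14 to 0.29) in OXP, and Atrip, the partner of ATR, by -0.14 (-0.30 to 0.01) and -0.03 (-0.19 to 0.12).

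**Figure D4:**
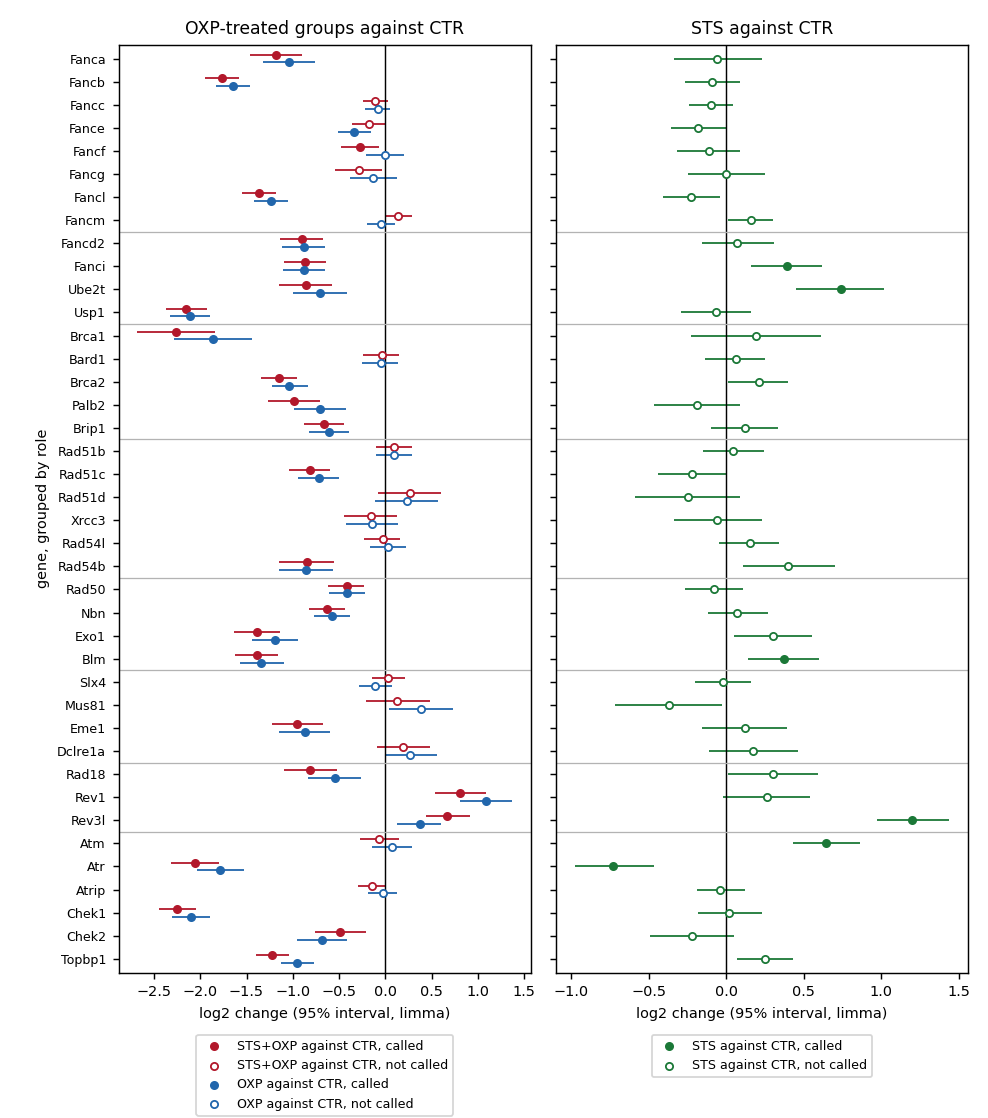
Log2 change with its 95% interval from limma for the 40 measured repair genes against CTR, with STS+OXP (red) and OXP (blue) on the left and STS (green) on the right, on axes of unequal scale. Filled points passed an adjusted p of 0.05 over all genes. In the left panel 24 points of each colour are filled to the left of 0 and 2 to the right, and in the right panel 1 is filled to the left and 5 to the right.

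Starvation without the drug gave 5 of these 40 genes called higher and 1 lower, where 9.75% of all genes were called higher and 6.74% lower. Rev3l rose most, to 230% of CTR (log2 change 1.20 ± 0.109, adjusted p = 5.2e-06), although its second probe set above background changed by -0.23. Ube2t had 5.21, 5.20 and 4.99 in STS+OXP, 5.43, 5.39 and 5.04 in OXP, 6.60, 6.85 and 6.76 in STS and 5.75, 6.25 and 6.00 in CTR arrays, so that the STS arrays were above all others. In STS it was at 167% of CTR (0.74 ± 0.133, adjusted p = 0.00167). Atm had 6.41, 6.41 and 6.37 in STS+OXP, 6.81, 6.35 and 6.45 in OXP, 7.05, 7.12 and 7.14 in STS and 6.53, 6.43 and 6.43 in CTR arrays, and the STS arrays were above all others. Atm was at 156% of CTR in STS (0.64 ± 0.1, adjusted p = 0.000549), and its other probe set changed by 0.89. Fanci (0.39, adjusted p = 0.0211) and Blm (0.37, adjusted p = 0.0306) also passed the test. Fanci lost its call without CTR replicate 1 (0.30, adjusted p = 0.105) or STS replicate 2 (0.33, adjusted p = 0.0956), and Blm lost it without CTR replicate 1, 2 or 3 or STS replicate 1 or 3 (0.28 to 0.39, adjusted p = 0.0622 to 0.142). Atr was the 1 gene called lower in STS, at 60.4% of CTR (-0.73 ± 0.119, adjusted p = 0.00084), while the second probe set, above background in 3 groups, changed by -0.15, and the average of all its probe sets by -0.25 (adjusted p = 0.133). Leaving out 1 array also added calls in STS, of Topbp1 (0.31 without CTR replicate 2, 0.25 without OXP replicate 1 or 2), Rad54b (0.55) and Exo1 (0.45) without CTR replicate 2, Rad18 (0.48) without STS replicate 2, Mus81 (-0.37) without OXP replicate 2 and Rad51c (-0.22) without OXP replicate 3. The mean over the fibroblast markers was highest in STS. Pdgfrb, Col1a1 and Col1a2 were highest there, whereas Pdgfra, Dcn, Lum, Thy1 and Acta2 were not. The part of these markers in the changes was not tested. Usp1, Chek1 and Fancb, which were among the lowest with OXP, changed by -0.07, 0.02 and -0.09 in STS, with 95% intervals of -0.29 to 0.16, -0.18 to 0.23 and -0.27 to 0.09. The other probe sets of Usp1, above background in all groups, changed by 0.07 and -0.45 in STS.

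Within starved cells, OXP lowered 24 of 40 genes and raised 3, against 11.2% and 10.8% of all genes in STS+OXP against STS. The median of the 40 genes was -0.71, against 0.04 over all genes. Brca1 was at 18.2% of the STS level, Chek1 at 20.7% and Usp1 at 23.6% (log2 change -2.46, -2.27 and -2.08, adjusted p = 6.39e-07, 1.78e-09 and 7.09e-09). Atm and Rev3l were lower in STS+OXP than in STS, by -0.71 and -0.53 (adjusted p = 0.000136 and 0.00261), although in OXP against CTR Atm was not called and Rev3l was higher. The other Rev3l probe set above background changed by 0.16 here, and the average of all Rev3l probe sets by -0.12 (adjusted p = 0.19). The 3 higher genes were Rev1 (0.55, adjusted p = 0.00664), Rad51d (0.51, adjusted p = 0.0324) and Mus81 (0.51, adjusted p = 0.0364). The other Rad51d probe sets, above background in all groups, changed by only 0.16 and 0.17 here, and by 0.04 and -0.23 in STS against CTR. Rad51d lost its call without STS replicate 1, 2 or 3 or STS+OXP replicate 1 or 2 (0.42 to 0.55, adjusted p = 0.0605 to 0.133). Mus81 lost it without CTR replicate 3 or any 1 array of STS or STS+OXP (0.45 to 0.55, adjusted p = 0.0509 to 0.133). Rad50 was lower by -0.35 (adjusted p = 0.0121), a call lost without STS replicate 1 or STS+OXP replicate 1 or 3 (-0.32 to -0.25, adjusted p = 0.0523 to 0.0619).

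Adding starvation to OXP gave no called change in these genes. With limma 0 of 40 genes were called higher and 0 lower in STS+OXP against OXP, where 0.00585% of all genes were called higher and 0.00585% lower. At an unadjusted p under 0.05, 2 were higher and 4 lower, while 12.6% of all genes passed that level in either direction. The unequal variance test that the study's methods name gave 3 of 40 at an unadjusted p under 0.05, where 3.01% of all genes passed it, and 0 after adjustment. The median of the 40 changes was -0.08 and the range -0.41 to 0.30. The interval of the difference was -0.26 to 0.18 for Usp1, -0.36 to 0.05 for Chek1 and -0.30 to 0.07 for Fancb, and for Brca1 it was -0.83 to 0.01. The other probe sets of Usp1 changed by 0.37 and -0.19. Without OXP replicate 2, 4 genes were called, with Fancf, Brca1 and Mus81 lower in STS+OXP (-0.36, -0.65 and -0.48) and Rev3l higher (0.44). The share of all genes called in that fit was not computed, so that this count cannot be set against it.

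The STS effect with OXP minus the STS effect without OXP, the interaction of both treatments, was called below 0 for 4 of 40 genes and above 0 for 0, against 5.76% and 2.53% of all genes. These were Rev3l (-0.90 ± 0.153, adjusted p = 0.00247), Ube2t (-0.89 ± 0.188, adjusted p = 0.01), Atm (-0.78 ± 0.141, adjusted p = 0.00361) and Topbp1 (-0.53 ± 0.119, adjusted p = 0.0147). For Ube2t, STS changed the signal by -0.15 with OXP and by 0.74 without it, and for Atm by -0.14 with OXP and 0.64 without it. For Rev3l the STS change was 0.30 with OXP, not called by limma (adjusted p = 0.287), and 1.20 without. The other Rev3l probe set above background changed by 0.07 with OXP and -0.23 without, so that the probe sets disagreed. Topbp1 changed by -0.27 with OXP and 0.25 without. Without OXP replicate 1, Atr (0.62, adjusted p = 0.00227) and Chek2 (0.55, adjusted p = 0.0357) were called above 0 as well, and without OXP replicate 2, Brca1 (-0.85) and Brca2 (-0.43) were called below 0. Exo1 (-0.65, adjusted p = 0.00833) was called below 0 without CTR replicate 2, and Rad18 (-0.74, adjusted p = 0.0103) without STS replicate 2.

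Other genes of crosslink repair and recombination were read from a list of 81, of which 72 were measured. In STS+OXP against CTR 36 of 72 were lower and 7 higher, with 14.2% and 16.4% of all genes so called, and in OXP against CTR 35 were lower and 9 higher, with 13.9% and 17.5%. In STS+OXP against STS 36 were lower and 5 higher, with 11.2% and 10.8% of all genes. Fignl1, an ATPase that acts in recombination, averaged 4.55 in STS+OXP and 4.90 in OXP, against 6.96 in CTR (adjusted p = 5.09e-07 and 2.19e-06). Rad51ap1, an accessory factor of strand invasion, averaged 3.81 in STS+OXP and 4.11 in OXP, against 5.87 in CTR (log2 change -2.06 and -1.77). Rpa2, a subunit of the protein that coats single strands, was lower by -1.96 and -1.79, and Mms22l, which acts at stalled forks, by -1.96 in STS+OXP. Timeless, a fork protection protein, and Clspn, the adaptor between ATR and CHK1, were lower in STS+OXP than in STS by -2.32 and -2.26. Polk, another translesion polymerase and also one of the p53 targets read here, averaged 7.45 in OXP against 5.66 in CTR (1.79 ± 0.0904, adjusted p = 4.96e-09). In STS against CTR 12 of 72 were higher and 6 lower, where 9.75% and 6.74% of all genes were called. They include Spidr (0.84), a scaffold of recombination, Mdc1 (0.76), a reader of marked chromatin at breaks, and Shprh (0.67), a PCNA ligase, higher and Abraxas1 (-0.64), a subunit of a BRCA1 complex, lower. The interaction was called below 0 for 10 of 72 and above 0 for 1, against 5.76% and 2.53% of all genes, with Atad5, which unloads PCNA, at -0.89, Clspn at -0.87, Spidr at -0.84 and Wrn, a helicase, at -0.81.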

How the data were processed

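Total RNA of CT26 cells was labelled for 12 Affymetrix mouse arrays. The deposited log2 values were made by the authors with RMA in R 3.02, per the submitters' processing notes. RMA corrects background, equalizes the arrays and summarises each probe set. This forces like distributions on all arrays, so that changes are relative to the other genes. The values were used without further normalization. Of 45141 probe sets, 28898 had 1 symbol, 551 several and 104 were controls, and the brightest probe set per gene left 17097 genes. Older list symbols were matched through RefSeq synonyms.

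A model of the group means over the 12 arrays was fitted with limma 3.58.1 under R 4.3.3 (8 residual and 5.05 prior degrees of freedom), two-sided, and tested on simulated data. Intervals are at 95%. The number of arrays limits the precision, and array signals carry no counts. Samples were grouped by the labels. The repair genes, the other lists and the tests were chosen with earlier results of these data known. Named genes were the repair genes called, up to 3 a role by size against CTR, those at background and, of the wider list, the 4 largest called changes a comparison, and the others were singled out after their values were seen. Alternatives were median centring, cyclic loess, other choices of probe set, a filter on dim genes, other variance models, array weights, fits of single comparisons, replicate number as a block, each array left out, a fold of at least 2 and the methods' unequal variance test.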

Additional observations from a re-analysis of the deposited data

Results flagged for a closer look

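For 4 of 40 repair genes the effect of STS differed between cells with and without OXP by limma's test of the interaction. All 4 were below 0, where 5.76% of all genes were called below 0 and 2.53% above. The STS effect with OXP minus that without was -0.90 for Rev3l (0.30 with OXP and 1.20 without, adjusted p = 0.00247), -0.89 for Ube2t (-0.15 and 0.74, adjusted p = 0.01), -0.78 for Atm (-0.14 and 0.64, adjusted p = 0.00361) and -0.53 for Topbp1 (-0.27 and 0.25, adjusted p = 0.0147), all in log2 units. Averaging all probe sets of a gene, dim ones among them, left -0.18 for Rev3l (adjusted p = 0.238) and -0.33 for Topbp1 (adjusted p = 0.111). The other Rev3l probe set above background in all groups changed with STS by 0.07 with OXP and -0.23 without. Leaving out OXP replicates 1 and 2 together left -0.64 for Ube2t (adjusted p = 0.0648).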

How the results depend on the processing

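The counts of called repair genes in STS+OXP against CTR (26), OXP against CTR (26) and STS+OXP against STS (27) stayed within 1.5 times under the other normalizations, probe set choices and variance models tried. With a fold of at least 2 they were 11, 11 and 16, with 1 for STS against CTR and 0 for the interaction, since fewer genes reach that size. The methods' unequal variance test, which estimates the spread for each gene from 2 groups of 3 arrays, called 8 in OXP against CTR and 2 in STS against CTR. Over all genes it called 1034 and 715. For the other alternatives, calls over all genes were not counted, so that their counts of repair genes have no such share beside them. The 6 calls in STS against CTR became 15 with array quality weights, 10 with only the compared arrays and 12 without OXP replicates 1 and 2 together, and the cause was not tested. For STS+OXP against OXP, 4 were called without OXP replicate 2 and 1 (Rad51c, -0.39) without OXP replicates 1 and 2 together, against 0 with all arrays. The interaction gave 2 calls with the average of all probe sets (Rev3l and Topbp1 lost). With that average Rad51b, at background, was called lower by -0.17 in OXP, -0.17 in STS+OXP and -0.24 in STS+OXP against STS, because its other dim probe set enters the mean. Leaving out 1 array at a time gave 25 to 27 calls in STS+OXP against CTR, 25 to 27 in OXP against CTR, 24 to 27 in STS+OXP against STS, 4 to 8 in STS against CTR, 0 to 4 in STS+OXP against OXP and 4 to 6 in the interaction. Equal replicate numbers showed no pairing in the signals once group means were taken off. Correlations of the 18 same-numbered pairs then ran from -0.199 to 0.102, and 3 of 12 arrays were closest to their own number. Whether cultures were paired by design cannot be told from these values. With the replicate number as a block, calls were 26 for STS+OXP against CTR (Fancf, -0.28, lost and Fancg, -0.29, gained), 26 for OXP against CTR, 28 for STS+OXP against STS, 6 for STS against CTR, 0 for STS+OXP against OXP and 4 for the interaction. Signals near the control floor understate a fall, which limits Fancb, Chek1, Eme1 and the genes given as bounds.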

Other observations

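Rad54l, the motor of strand exchange, was at background on its own probe set, but 3 further probe sets are annotated to both Lrrc41 and Rad54l and were not used. The brightest of them averaged 4.20 on the STS+OXP arrays and 4.15 on the OXP arrays, with 6.35 in STS and 5.47 in CTR. Its log2 change was -1.27 in STS+OXP, -1.32 in OXP and 0.88 in STS against CTR, and these arrays cannot tell which of the 2 genes gave the signal. Rad18 probe sets above background in all groups disagreed under starvation, at 0.30 for the one used and -0.27 for the other, while both were lower with OXP. This choice of genes was made after their values were seen.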
